A study of Danio rerio with 13 samples.

Results

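The genes described here were plainly present in the muscle of some zebrafish and at or near 0 counts in others. They were selected on their measured levels. Levels are given as CPM, the count of a gene per 1000000 counts of its library. A gene was taken if it reached at least 2 CPM in 3 or more libraries and stood at 0.05 CPM or less in 3 or more libraries. Of 32105 genes in the count table, 10613 reached the upper level in 3 or more of the 10 libraries used for the choice, and 9 of these also met the lower level. The 9 genes were nlrc8, slc37a4bl, NHERF4, ceacam1, STC1, si:ch211-219a15.4, si:ch73-359m17.5, si:dkeyp-1h4.8 and ENSDARG00000098222, which carries no symbol. Below, a library is called on for a gene at 2 CPM or more, off at 0.05 CPM or less, and intermediate between these levels. Since the levels themselves chose the genes, the spread between libraries is a description and was not tested.

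RNA was sequenced from muscle of male AB-strain zebrafish aged 3 months. The 13 libraries were 5 wild types, 5 fish with 1 mutant copy of tert (tert+/-) and 3 fish with both copies mutant (tert-/-). Telomerase, the enzyme that extends chromosome ends, takes its catalytic subunit from tert, and the mutant allele carries a nonsense change. Libraries of a genotype are numbered in the order of their records, which carries no meaning. The study counts its animals by the same numbers per genotype, so that each library is taken as 1 fish, and no source used here tells whether the fish were littermates.

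Most of the 9 genes belong to classes with known functions. NLR proteins, the class of nlrc8, are receptors of the cytosol that recognise microbial products and cell damage and start innate immune responses, and the class is greatly expanded in fish genomes. Stanniocalcin 1, the product of STC1, is a glycoprotein hormone that lowers calcium uptake in fish and was first known from the corpuscles of Stannius beside the kidney. The symbol slc37a4bl places that gene with slc37a4, whose product carries glucose-6-phosphate into the endoplasmic reticulum. In mammals, NHERF4 is a scaffold with PDZ domains in kidney and intestine, and CEACAM1 is an adhesion molecule of the immunoglobulin superfamily. No role is given here for the 3 genes with clone-based names or for ENSDARG00000098222. The RefSeq annotation lists si:ch73-359m17.5 as a long noncoding RNA and nlrc8, slc37a4bl, ceacam1 and STC1 as protein-coding.

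Library totals ranged from 10585558 to 47492321 counts over the 13 libraries, and the lowest of the 10 used for the choice was 27652851. A level of 0.05 CPM equals 1.38 to 2.37 counts in those 10 libraries. The choice left out 1 library of each genotype, namely replicate 5 of the wild types and replicate 1 of both mutant groups. They held ddx4, a helicase of germ cells, at 116, 180 and 426 CPM, against at most 3.71 CPM in the other 10. The summed level of a list of testis genes was 578 to 2703 CPM in these 3 and 5.55 to 48.5 CPM in the 10. A list of fast muscle genes summed to 249366 to 296705 CPM in the 10 libraries and to 161459 to 220444 CPM in the 3, so muscle transcripts were abundant throughout. In bulk tissue, fewer cells of a type and less RNA per cell cannot be told apart.

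**Figure D1:**
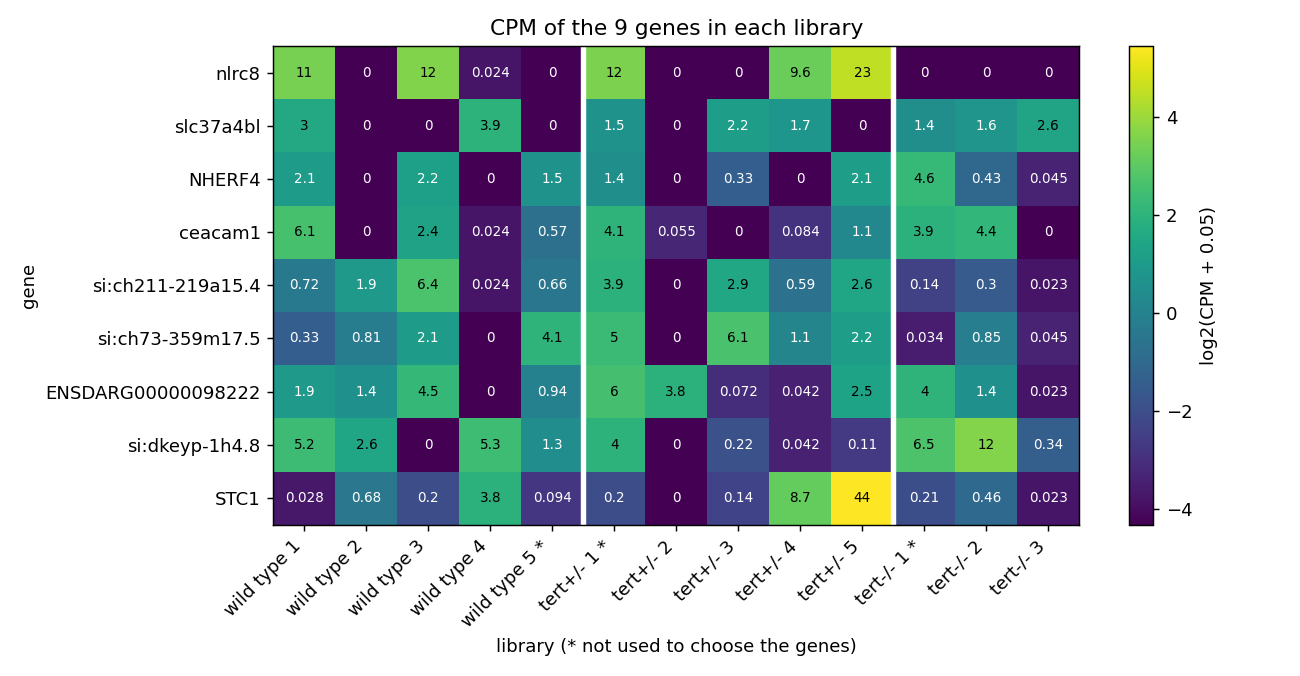
Each cell gives the level of a gene (rows) in a library (columns) in CPM, coloured by log2(CPM + 0.05), with white lines between the genotypes and a star on the 3 libraries that did not enter the choice. The nlrc8 row has no intermediate value, and the columns wild type 4, tert+/- 2 and tert-/- 3 hold 6, 7 and 7 genes in the off range.

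The clearest example was nlrc8 (ENSDARG00000076819). In wild types it stood at 10.8, 0, 12.2, 0.0243 and 0 CPM in replicates 1 to 5. In tert+/- fish it stood at 11.5, 0, 0, 9.58 and 22.8 CPM, and in the 3 tert-/- fish at 0 CPM each. Thus 5 libraries were on and 8 were off, with no library between 0.0243 and 9.58 CPM. The 8 off libraries held at most 1 nlrc8 count, while the 5 on libraries held 172 to 838. Among the on libraries the levels spanned only 2.38-fold. The lowest on level was at least 93.0-fold higher than what 3 counts would give in any tert-/- library, the highest of these floors being 0.103 CPM. The 3 libraries that were not used for the choice fell on either side, since tert+/- replicate 1 was on and the others held 0 counts.

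Among the 10 libraries, summed marker lists were compared between the on and off libraries of each of the 9 genes. Libraries intermediate for a gene were left out of these comparisons. The lists covered testis, exocrine pancreas, lens, photoreceptor, liver, intestine, skin, and nerve and brain. Others covered erythrocytes, neutrophils and macrophages, lymphocytes, slow and fast muscle, and kidney. Most ranges overlapped, and for NHERF4 and slc37a4bl all did. With so few libraries, some lists can separate without any link to a gene. For nlrc8, only the testis and photoreceptor lists separated. Of the testis list, 14 of 15 symbols were matched. In the 10 libraries, 3 had a median of at least 1 CPM and 0 were at or under 0.05 CPM throughout. The list summed to 19.6 to 48.5 CPM with nlrc8 on and to 5.55 to 11.2 CPM with it off. A list of photoreceptor genes had 10 of 11 symbols matched, with 4 at or under 0.05 CPM in all of the 10 libraries. It summed to 0.681 to 0.884 CPM with nlrc8 on and to 0.192 to 0.542 CPM with nlrc8 off. In the 3 libraries with ddx4 above 50 CPM the testis list was far higher. There nlrc8 stood at 11.5 CPM with a testis sum of 1572 CPM, and at 0 with sums of 578 and 2703 CPM. The part of the testis and photoreceptor transcripts in the level of nlrc8 was not tested.

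Several genes listed beside nlrc8 were higher in the same libraries. The rows of the table follow the chromosomes, as 99.2% of 10358 consecutive row pairs that could be matched to the RefSeq annotation lay on the same chromosome there. Likeness was measured as Pearson's r of log2(CPM + 0.05) over the 10 libraries, against all 19802 genes that reached 0.2 CPM in any of them. These correlations share libraries and depth and are given as a description. Of the 7 genes within 5 rows of nlrc8 that reached this level, 6 were among the 100 genes most like it. The next row, nlrc9, which is a second NLR gene, ranked 1 with r = 0.99. The gene si:ch211-187g4.1 ranked 2 with r = 0.98, si:dkey-230i18.2 ranked 4 with r = 0.96 and si:dkey-121n8.5 ranked 5 with r = 0.95. Rank 3 was held by SFR1, a gene beyond 5 rows, with r = 0.97. A high r over the 10 libraries was thus not limited to genes listed beside nlrc8. For SFR1, r was 0.18 over all libraries. RefSeq likewise orders si:dkey-121n8.5, nlrc8, nlrc9 and si:ch211-187g4.1 along the chromosome, with 1 long noncoding RNA between nlrc8 and nlrc9.

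Of these 6 neighbours, only si:dkey-121n8.5 passed 1 CPM in any library. It stood at 3.87, 0.516, 6.83, 1.01 and 2.10 CPM in the 5 libraries with nlrc8 on and at 0.0723 CPM or less in the 8 with it off. For nlrc9 the range was 0.402 to 0.599 CPM in the 5 and 0 to 0.0945 CPM in the 8, where it had at most 1 count. The neighbour ENSDARG00000092036, 3 rows away, did not follow, with r = -0.51 over the 10 libraries and -0.05 over all 13. Over all 13 libraries the correlation with nlrc8 stayed at 0.96 for nlrc9, 0.93 for si:ch211-187g4.1 and 0.94 for si:dkey-121n8.5, and stood at 0.68 in place of 0.82 for si:dkey-121n8.7. How reads that match several genes were counted is not given, and the sequences of nlrc8 and nlrc9 were not compared, so the low nlrc9 counts are uncertain.

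**Figure D2:**
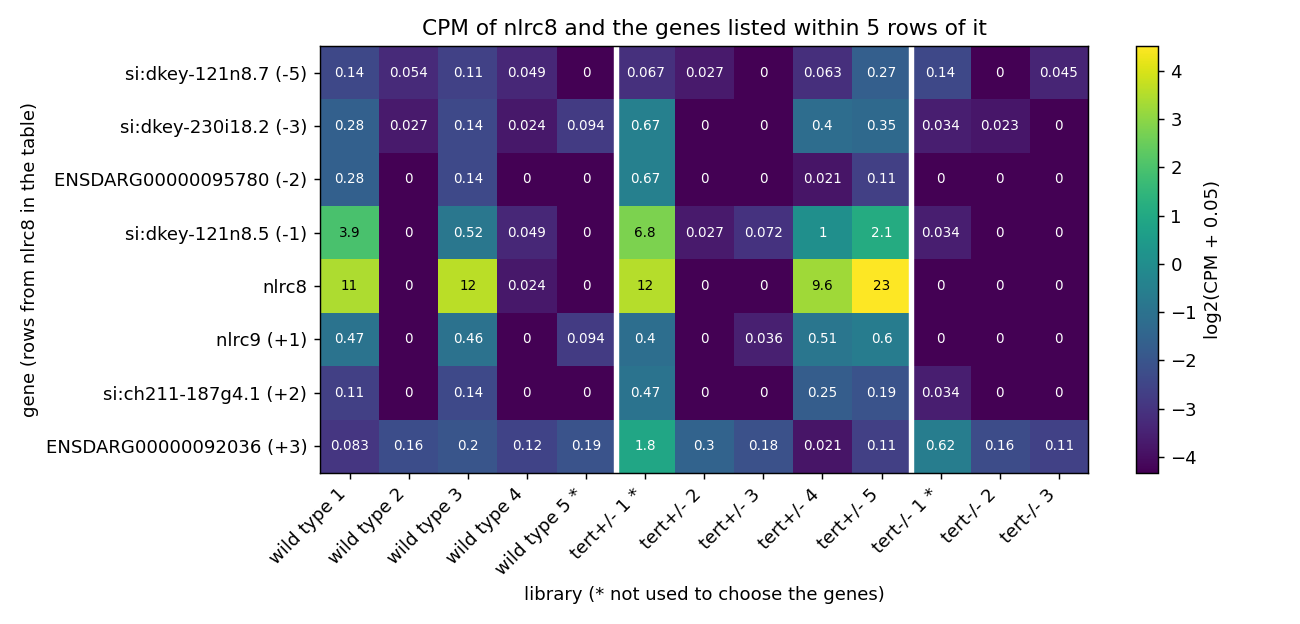
Rows are nlrc8 and the genes within 5 rows of it in the count table that reached 0.2 CPM, in table order, with the distance in brackets; columns are libraries and cells give CPM, coloured by log2(CPM + 0.05). In wild type replicates 1 and 3 and tert+/- replicates 1, 4 and 5, where nlrc8 was at 9.58 to 22.8 CPM, nlrc9 was at 0.402 to 0.599 CPM, and elsewhere it was at 0.0945 CPM or less.

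Of the genes with NLR symbols, only nlrc8 met the rule, and nlrc9 followed it at a lower level. NLR genes without such a symbol were not examined. The table holds 19 genes with NLR symbols, of which 9 were on in at least 1 of the 10 libraries and 4 were on in all 10, namely NLRX1, nlrc3l, nlrc3l1 and nlrp3l2. The remaining 10 stayed under 2 CPM throughout the 10 libraries. A single-fish loss outside the rule was seen for nlrc11, named here after its values were seen. It stood at 0.0545 CPM, or 2 counts, in tert+/- replicate 5 and at 9.26 to 25.2 CPM in the other 12 libraries, where the median was 13.4 CPM. This library was also the one with the most nlrc8.

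A second gene with no low intermediate values was slc37a4bl (ENSDARG00000093531). It stood at 2.96, 0, 0, 3.89 and 0 CPM in wild types, at 1.54, 0, 2.17, 1.68 and 0 CPM in tert+/- fish and at 1.37, 1.65 and 2.58 CPM in tert-/- fish. Thus 5 libraries held 0 counts and the other 8 lay between 1.37 and 3.89 CPM. Of these 8, 4 fell under the on level, so that the gap in this gene lay between 0 and 1.37 CPM. Among the 10 libraries, only nlrc8 and slc37a4bl had at least 4 on and at least 4 off. From these numbers alone, both had to stay chosen when any 1 of the 10 libraries was left out.

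Of the genes listed beside slc37a4bl, PAQR3, 2 rows away and named for a family of membrane receptors, came closest to its pattern, with r = 0.61 over the 10 libraries and rank 200 of 19802. It stood at 0.138, 2.03, 0.0573, 2.29 and 2.08 CPM in wild types, at 1.74, 0.0549, 1.81, 1.85 and 0.0817 CPM in tert+/- fish and at 3.40, 1.90 and 1.79 CPM in tert-/- fish. PAQR3 was at 0.0817 CPM or less in 3 of the 5 libraries without slc37a4bl. In the other 2, wild type replicates 2 and 5, it was at 2.03 and 2.08 CPM. The reverse was seen in wild type replicate 1, with slc37a4bl at 2.96 and PAQR3 at 0.138 CPM. The genes thus shared their low state in part of the fish, and r fell to 0.51 over all 13 libraries.

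The unnamed gene ENSDARG00000098222 showed an opposite relation to a neighbour. It stood at 1.88, 1.43, 4.50, 0 and 0.945 CPM in wild types, at 5.96, 3.79, 0.0723, 0.0421 and 2.51 CPM in tert+/- fish and at 4.02, 1.44 and 0.0227 CPM in tert-/- fish. At a distance of 3 rows lies a gene with the symbol KYAT3 (ENSDARG00000101791), named for a kynurenine aminotransferase. KYAT3 stood at 0, 1.57, 0.0860, 3.02 and 0.756 CPM in wild types, at 0.0670, 0, 3.91, 2.32 and 1.96 CPM in tert+/- fish and at 3.98, 1.60 and 2.72 CPM in tert-/- fish. Every library held at least 1 of the 2 genes above 0.1 CPM.

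There were 3 patterns among the 13 libraries. In 4 libraries ENSDARG00000098222 was at 0.0723 CPM or less and KYAT3 at 2.32 to 3.91 CPM. In 4 others KYAT3 was at 0.0860 CPM or less and ENSDARG00000098222 at 1.88 to 5.96 CPM. In the remaining 5 both were present, ENSDARG00000098222 at 0.945 to 4.02 CPM and KYAT3 at 0.756 to 3.98 CPM. Their summed level ranged from 1.70 to 8.0 CPM. The correlation of the pair was -0.70 over the 10 libraries and -0.60 over all 13. A second identifier with the symbol KYAT3 (ENSDARG00000100818), 4 rows away, had r = 0.48 over the 10 libraries. How reads that match both identifiers were counted is not given, so the KYAT3 values are uncertain. In the 10 libraries, the lymphocyte list summed to 3.62 to 4.11 CPM with ENSDARG00000098222 on and to 2.13 to 2.4 CPM with it off. With the gene intermediate, the list summed to 3.04 to 6.26 CPM. In tert+/- replicate 3, intermediate at 0.0723 CPM, the sum was 4.19 CPM. The part of the lymphocyte list in this result was not tested.

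**Figure D3:**
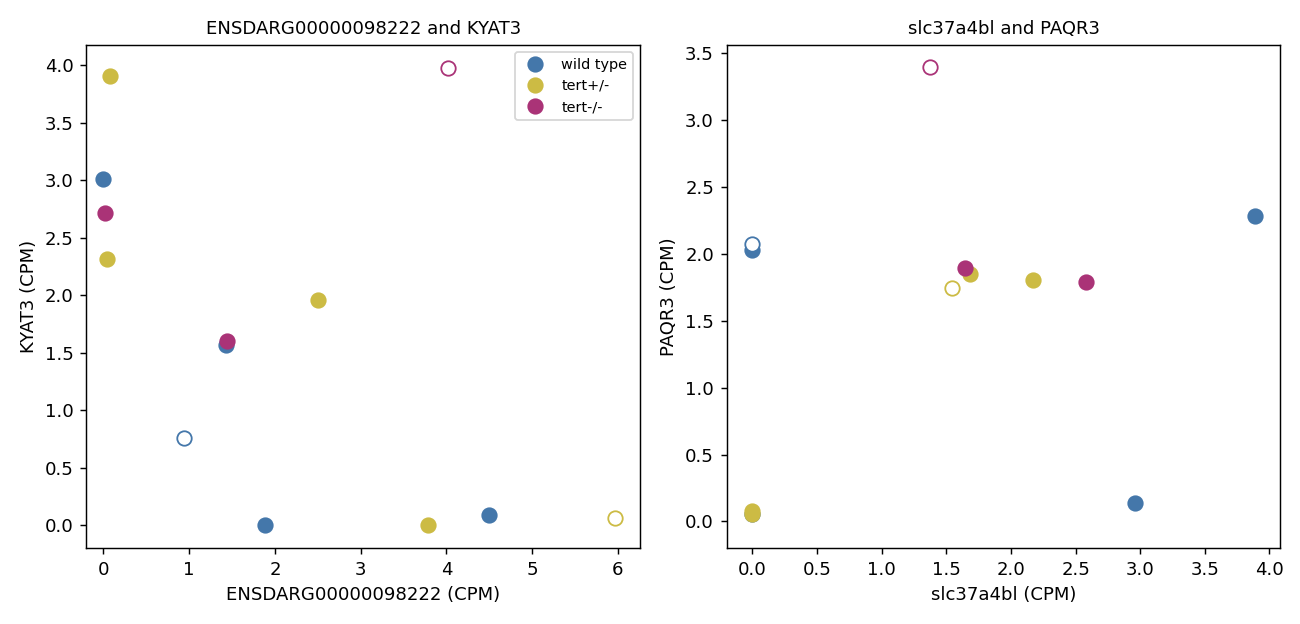
Each point is a library, coloured by genotype and hollow for the 3 libraries not used for the choice; axes are CPM of a chosen gene (horizontal) and of a gene 2 or 3 rows from it in the table (vertical). For ENSDARG00000098222 and KYAT3 the points lie along both axes with 5 libraries between them. For slc37a4bl and PAQR3 there are 8 libraries with both above 0.1 CPM, 3 with neither and 2 with PAQR3 alone. These 8 include wild type replicate 1, with PAQR3 at 0.138 CPM.

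The remaining 6 genes were graded across the fish, with values between the off and on levels in 4 to 7 of the 13 libraries. By this measure slc37a4bl, with 4 such libraries, and ENSDARG00000098222, with 5, did not differ from them. NHERF4 (ENSDARG00000055656) stood at 2.07, 0, 2.24, 0 and 1.51 CPM in wild types, at 1.41, 0, 0.325, 0 and 2.13 CPM in tert+/- fish and at 4.60, 0.434 and 0.0453 CPM in tert-/- fish. It had 0 counts in 4 libraries. The highest level was in tert-/- replicate 1, the library with ddx4 at 426 CPM and a testis sum of 2703 CPM. Its neighbour ftr83, 5 rows away, had r = 0.80 and rank 131.

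The adhesion molecule gene ceacam1 (ENSDARG00000041119) stood at 6.06, 0, 2.44, 0.0243 and 0.567 CPM in wild types, at 4.09, 0.0549, 0, 0.0842 and 1.12 CPM in tert+/- fish and at 3.88, 4.37 and 0 CPM in tert-/- fish. On, intermediate and off libraries numbered 5, 4 and 4. The row before it, si:dkey-250k15.7, ranked 24 of 19802 in likeness with r = 0.90, at no more than 0.470 CPM. Over all 13 libraries r was 0.69, and in tert+/- replicate 1, where ceacam1 was on, this neighbour was at 0 CPM. RefSeq places si:dkey-250k15.7 4 genes from ceacam1 and, on the other side, cnfn 5 genes from it. In the count table cnfn lies beyond 5 rows. It ranked 4 in likeness to ceacam1, with r = 0.96 over the 10 libraries and 0.90 over all 13. Its highest level in the 10 was 2.56 CPM. Among the 10 libraries, the testis list summed to 10.9 to 24.1 CPM with ceacam1 on and to 5.55 to 7.99 CPM with it off. Intermediate libraries did not keep to this order. In tert+/- replicates 2, 4 and 5, with ceacam1 at 0.0549, 0.0842 and 1.12 CPM, the list summed to 11.2, 29.4 and 48.5 CPM. The part of these transcripts in the level of ceacam1 was not tested.

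The pair si:ch211-219a15.4 and si:ch73-359m17.5 changed in parallel. The first (ENSDARG00000068951) stood at 0.719, 1.87, 6.36, 0.0243 and 0.661 CPM in wild types, at 3.89, 0, 2.89, 0.590 and 2.62 CPM in tert+/- fish and at 0.137, 0.297 and 0.0227 CPM in tert-/- fish. The second (ENSDARG00000101088) stood at 0.332, 0.812, 2.09, 0 and 4.06 CPM in wild types, at 5.03, 0, 6.15, 1.05 and 2.21 CPM in tert+/- fish and at 0.0343, 0.846 and 0.0453 CPM in tert-/- fish. Neither gene was on in any tert-/- fish, although wild type replicate 4 and tert+/- replicate 2 were as low.

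The correlation of this pair was 0.92 over the 10 libraries and 0.89 over all 13, and the genes most like both included chrna8, which encodes a nicotinic acetylcholine receptor subunit, and RYR2, a calcium release channel. With chrna8 the r was 0.96 for si:ch211-219a15.4 and 0.95 for si:ch73-359m17.5 over the 10 libraries. Over all 13 it was 0.81 and 0.75 with chrna8, and 0.67 and 0.70 with RYR2, which reached at most 0.832 CPM in the 10. Among the 10 libraries, the skin list summed to 311 to 1068 CPM in the 3 with both genes on and to 121 to 216 CPM in the 3 with both off. Of its 10 symbols 9 were matched. In the 10 libraries, 7 had a median of at least 1 CPM and 1 was never above 0.05 CPM. The photoreceptor list summed to 0.542 to 0.774 CPM in these on and 0.192 to 0.268 CPM in these off libraries. The lymphocyte list summed to 3.90 to 4.19 and 2.13 to 3.62 CPM. Outside the 10, si:ch73-359m17.5 was on in tert+/- replicate 1 and wild type replicate 5, with skin sums of 380 and 127 CPM. It was off in tert-/- replicate 1, with a skin sum of 269 CPM. In the 3 libraries outside the 10, the photoreceptor list summed to 5.57 to 24.1 CPM and the lymphocyte list to 8.41 to 32.5 CPM. The part of any of these in the levels of the pair was not tested.

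The gene si:dkeyp-1h4.8 (ENSDARG00000092833) stood at 5.17, 2.62, 0, 5.33 and 1.32 CPM in wild types, at 3.95, 0, 0.217, 0.0421 and 0.109 CPM in tert+/- fish and at 6.49, 12.4 and 0.340 CPM in tert-/- fish. Of the tert+/- fish only replicate 1, a library with testis transcripts, was on. Among the 10 libraries, a lens list summed to 0.0486 to 0.111 CPM with this gene on and to 0.143 to 0.211 CPM with it off. With the gene intermediate, the list summed to 0 to 0.163 CPM. Of its 10 symbols 4 were matched. In the 10 libraries, 0 had a median of at least 1 CPM and 2 were never above 0.05 CPM. The lens sums rest on few counts, as 3 counts equal 0.0632 to 0.108 CPM in these libraries. The part of the lens list was not tested. The gene most like it over the 10 libraries was NKD1, an inhibitor of Wnt signalling, with r = 0.98, but r was 0.49 over all 13. PAX7, a transcription factor of muscle satellite cells, had r = 0.92 over the 10 and 0.80 over the 13.

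The hormone gene STC1 (ENSDARG00000058476) was high in few fish. It stood at 0.0277, 0.677, 0.201, 3.84 and 0.0945 CPM in wild types, at 0.201, 0, 0.145, 8.72 and 43.7 CPM in tert+/- fish and at 0.206, 0.457 and 0.0227 CPM in tert-/- fish. Only 3 libraries were on, and 7 were intermediate. A list of intestine genes had 7 of 8 symbols matched. Among the 10 libraries it summed to 4.23 to 9.03 CPM with STC1 on and to 14.4 to 18.3 CPM with STC1 off. With STC1 intermediate, the list summed to 4.19 to 11.7 CPM. In tert+/- replicate 3, with STC1 at 0.145 CPM, the sum was 7.70 CPM. The part of the intestine list in the level of STC1 was not tested. A list of kidney tubule and glomerulus genes, added after values had been seen, summed to 10.5, 16.5 and 15.0 CPM in the 3 on libraries, wild type replicate 4 and tert+/- replicates 4 and 5. In the 3 off libraries among the 10 this list summed to 1.68 to 48.4 CPM, so the ranges overlapped. The 4 libraries with the highest kidney sums, at 126, 75.0, 51.9 and 48.4 CPM, held STC1 at 0.206, 0.145, 0.457 and 0.0277 CPM. The part of the kidney list in the level of STC1 was not tested. The gene most like STC1 over the 10 libraries, rbm12ba with r = 0.94, had r = 0.08 over all 13.

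As a set the 9 genes did not come on in the same fish. Over the 36 pairs the median r was 0.24 in the 10 libraries and 0.21 in all 13, and single pairs ranged from -0.75 to 0.92. When genes were joined at r = 0.8 by average linkage, 7 groups resulted, of which 2 held more than 1 gene. These were si:ch211-219a15.4 with si:ch73-359m17.5 and NHERF4 with ceacam1. NHERF4 and ceacam1 had r = 0.82, with both on in 2 libraries, both off in 3 and 0 libraries in opposite states. The lowest correlation was that of ENSDARG00000098222 and slc37a4bl, where 5 of the 10 libraries were on for 1 gene and off for the other. The same number of opposite libraries was found for nlrc8 with slc37a4bl and for nlrc8 with si:dkeyp-1h4.8. No pair of the 9 genes lay within 5 rows of each other, the smallest distance being 120 rows.

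Individual fish differed in how many of the genes were on. Wild type replicates 1 to 5 had 5, 1, 6, 3 and 1 genes on and 1, 4, 2, 6 and 2 off. In tert+/- replicates 1 to 5 there were 6, 1, 3, 2 and 6 genes on and 0, 7, 2, 3 and 1 off. In tert-/- replicates 1 to 3 there were 4, 2 and 1 genes on and 2, 1 and 7 off. Each genotype therefore held a fish with at least 6 of the 9 genes off and a fish with at least 4 on.

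The 9 genes did not come from 1 family. By symbol, 1 was among the 19 NLR genes, 1 among 442 solute carriers and 1 among 5836 genes without a symbol, and the other 6 fell in none of the families examined. None came from 36 MHC genes, 156 tripartite motif genes, 88 immunoglobulin-type receptors, 5 C-type lectins, 274 zinc finger genes, 73 chemokines and receptors, 150 cytochrome P450 and other detoxifying enzymes, 170 olfactory and taste receptors, 27 histones, 124 G protein-coupled receptors or 42 proteases, as matched by symbol. This matching does not count ceacam1 among the immunoglobulin-type receptors, although its mammalian namesake is of the immunoglobulin superfamily. Few of some families could be chosen, since 13 MHC genes, 27 tripartite motif genes, 3 immunoglobulin-type receptors and 0 olfactory and taste receptors reached 2 CPM in 3 or more of the 10 libraries.

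**Figure D4:**
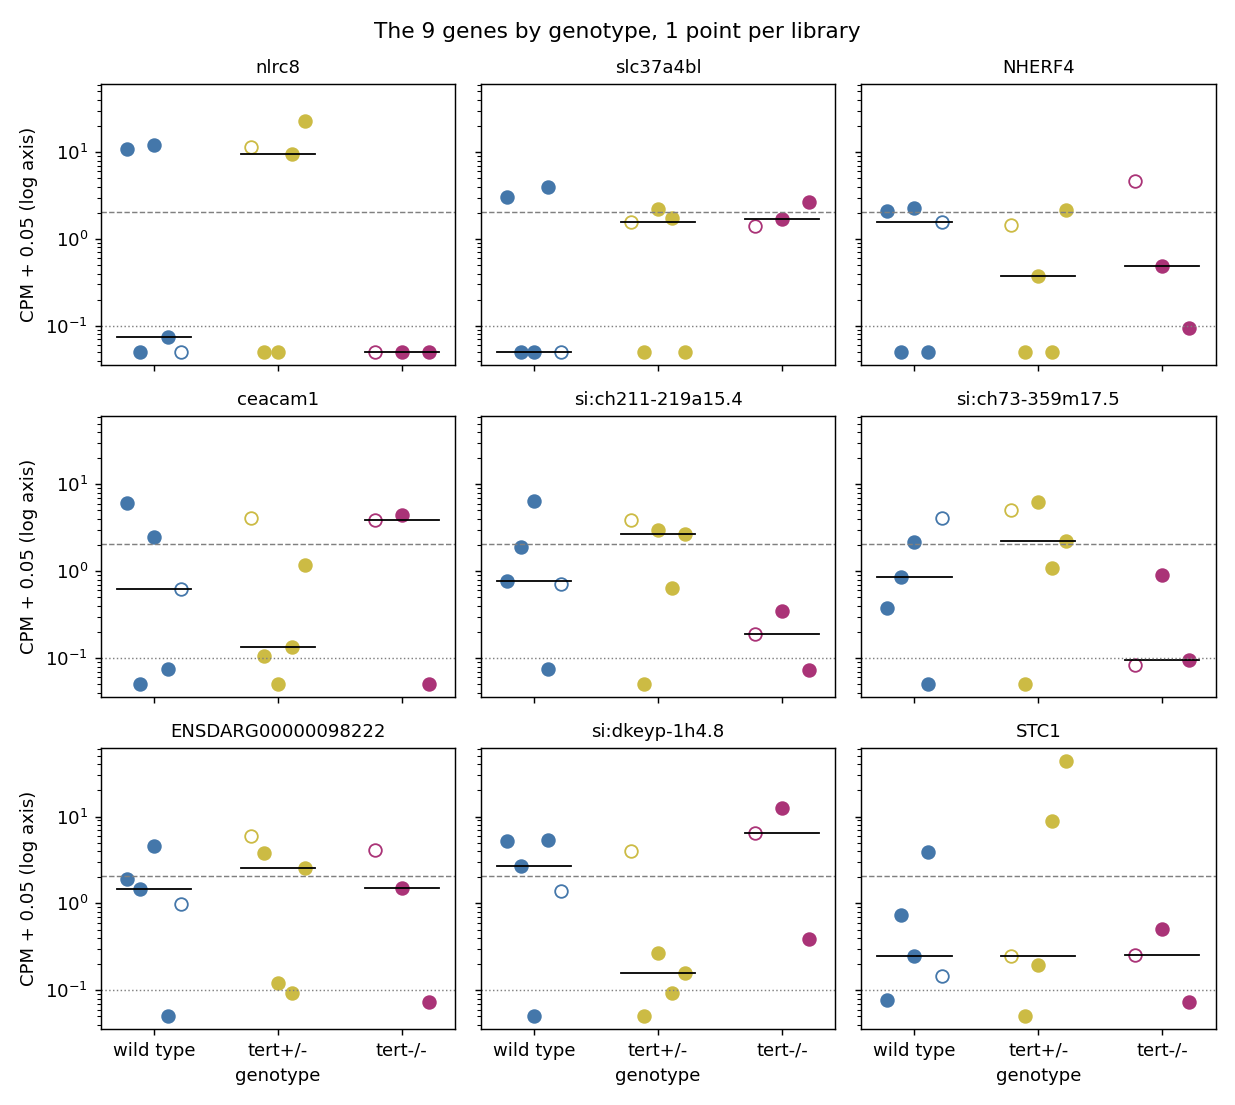
Each panel is a gene and each point a library, placed by genotype on a log axis of CPM + 0.05, hollow for the 3 libraries not used for the choice, with a black bar at the genotype median. The dashed and dotted lines mark 2 and 0.05 CPM, and in every panel the genotypes overlap.

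Genotype did not separate the on fish from the off fish for any of the 9 genes. For nlrc8, 2 of 5 wild types, 3 of 5 tert+/- and 0 of 3 tert-/- fish were on. For slc37a4bl, counts were found in 2 of 5 wild types, 3 of 5 tert+/- and 3 of 3 tert-/- fish. The ranges of wild type and tert-/- fish overlapped for all 9 genes, where 1.25% of 19407 tested genes had every tert-/- library higher and 0.247% every tert-/- library lower. Between tert+/- and wild type, 0 of the 9 genes separated, beside 0.804% of all genes in the higher and 0.0618% in the lower direction. Between tert-/- and tert+/-, 0 separated, beside 0.309% higher and 0.289% lower. In the 10 libraries without abundant testis transcripts, si:dkeyp-1h4.8 was higher in both tert-/- fish than in all 4 tert+/- fish. This also held for 2.65% of all genes, while 5.43% were lower in this way. All these shares rest on plain CPM. With edgeR's TMM scaling of the 13 libraries, 0 of the 9 genes separated as well. The shares against wild type were then 0.402% higher and 0.984% lower for tert-/-, and 0.252% and 0.340% for tert+/-. Between tert-/- and tert+/- they were 0.572% and 0.639%.

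With edgeR's quasi-likelihood test, 0 of the 9 genes passed an adjusted p of 0.05 in any comparison, as did 0% of the 19407 genes tested in each. At an unadjusted p under 0.05 there were 2, 0 and 4 of the 9 genes between tert-/- and wild type, tert+/- and wild type, and tert-/- and tert+/-, beside 2.56%, 2.87% and 1.46% of all genes. The 2 comparisons with tert-/- share the same 3 fish. The median size of the log2 fold change of the 9 genes was 0.84, 0.86 and 3.04, beside 0.31, 0.25 and 0.25 over all genes. Standard errors were derived as the size of the log2 fold change divided by the square root of the test's F statistic. Their median over the 9 genes was 1.74, 1.51 and 1.74, beside 0.47, 0.40 and 0.46 over all genes. Since the 9 genes were chosen for large differences between libraries, larger values than over all genes follow from the choice. The counts of genes at an unadjusted p under 0.05 rest on the same libraries as the choice and are a description only.

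Between tert-/- and wild type, the lowest edgeR p among the 9 genes was that of nlrc8, at 0.030 with an adjusted p of 0.99. No fold change is given for nlrc8, since all tert-/- libraries held 0 counts. DESeq2 called nlrc8 in this comparison, with an adjusted p of 2.3e-07, and no other gene, 0.00395% of those with an adjusted p. Between tert-/- and tert+/- DESeq2 likewise called nlrc8 alone, with an adjusted p of 5.5e-08 and the same percentage, whereas edgeR gave an adjusted p of 1.0. Over the edgeR alternatives, the adjusted p of nlrc8 ranged from 0.53 to 1.0 against wild type and from 0.76 to 1.0 against tert+/-. Without the 3 libraries rich in testis transcripts, DESeq2 called 0 of the 9 genes, beside 0% of all genes in both comparisons with tert-/- and 0.206% between tert+/- and wild type. The adjusted p of nlrc8 was then 1.0 in both comparisons with tert-/-. Its 5 on and 8 off fish were so distributed that wild type replicates 2, 4 and 5 and tert+/- replicates 2 and 3 were as low as the tert-/- fish.

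The second gene below an unadjusted p of 0.05 between tert-/- and wild type was si:ch211-219a15.4. Its log2 fold change was -3.97 ± 1.66 (standard error derived from the F statistic, edgeR adjusted p = 0.99). The same gene differed by -3.70 ± 1.64 between tert-/- and tert+/- (edgeR adjusted p = 1.0). In that comparison si:dkeyp-1h4.8 was higher in tert-/- by 3.55 ± 1.52 and STC1 was lower, with a log2 fold change of -5.90 ± 2.56 (edgeR adjusted p = 1.0 for each). Between tert+/- and wild type the smallest unadjusted p among the 9 genes belonged to si:dkeyp-1h4.8, with a log2 fold change of -2.86 ± 1.4 (edgeR adjusted p = 1.0). None of these differences passed the test over all genes.

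The edges of the choice were not sharp. For the upper level, the third-highest value over the 10 libraries was 2.07 CPM for NHERF4, 2.09 for si:ch73-359m17.5 and 2.44 for ceacam1, just inside. It was 1.88 CPM for chrna8, 1.73 for si:dkey-265j8.3 and 1.60 for ENSDARG00000099419, just outside. For the lower level, the third-lowest value was 0.0453 CPM for si:ch73-359m17.5 and 0.0421 CPM for both si:dkeyp-1h4.8 and ENSDARG00000098222, just inside. It was 0.0553 CPM for slco1f4 and 0.0680 CPM for both si:ch211-233m11.1 and pvalb9, just outside. The number of genes chosen was 3 without wild type replicate 3, 4 without either tert+/- replicate 2 or tert+/- replicate 5, and 5 without either wild type replicate 4 or tert-/- replicate 3. The genes nlrc8 and slc37a4bl were kept in all of these, which follows from their numbers of on and off libraries.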

How the data were processed

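The submitters' processing notes name bcl2fastq 1.8.4, STAR 2.4.1d, featureCounts 1.4.6-p4 and the GRCz10 build. The authors deposited whole-number counts per gene, which were used unchanged. Their RPKM table was not used. No source used here gives the annotation release, the strand setting or the treatment of multi-mapping reads. Symbols were found for 26269 identifiers, and RefSeq (GRCz12tu) served for names, biotypes and gene order only, matching 5 of the 9 genes. No sequence was at hand, so protein identity was not analysed here.

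The genes and lists were chosen with earlier results of these data known. Named are the 9 genes, those most like them, those within 5 rows and those nearest each threshold. CPM were taken on plain totals. A floor of 3 counts was 0.0632 to 0.283 CPM and covers counting error only. Across all genes, 1 fit of the 13 libraries in edgeR 4.0.16 (R 4.3.3, TMM, default filter, quasi-likelihood test) compared the genotypes with Benjamini-Hochberg adjustment. It was tested on simulated data. Alternatives included DESeq2 1.42.0, other scalings, no filter, other thresholds and leaving out each library. Correlations used a pseudocount of 0.05 CPM.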

Additional observations from a re-analysis of the deposited data

Results flagged for a closer look

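In 4 of 18 sets of 5 libraries (9 genes in wild type and in tert+/-), the highest library stood further from the next than Dixon's 95% limit allows for 5 values. For normally distributed values, chance alone flags about 1 in 20 such sets. The limit was applied to plain CPM with many values near 0, where that rate need not hold, and the genes had been chosen for uneven levels. STC1 was at 43.7 CPM in tert+/- replicate 5 against 8.72 in the next library, and at 3.84 CPM in wild type replicate 4 against 0.677. The gene si:dkeyp-1h4.8 was at 3.95 CPM and ceacam1 at 4.09 CPM in tert+/- replicate 1, a library with testis transcripts, against 0.217 and 1.12 CPM in the next tert+/- library.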

How the results depend on the processing

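The number of genes chosen depended on the thresholds. It was 27 and 2 with an upper level of 1 and 5 CPM, 4 and 14 with a lower level of 0.02 and 0.1 CPM, and 40 and 2 when 2 or 4 libraries of each state were required, in place of 9. With all 13 libraries it was 271. Leaving out 1 of the 10 libraries gave 3 to 9 genes, the lowest without wild type replicate 3. The counts with TMM or DESeq2 factors were 10 and 9, of which 8 each were shared with the 9. The 9 genes fell into 7 groups at r = 0.7 and 8 at r = 0.9.

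Of 60 alternative counts of genes called between genotypes, 58 equalled the main count of 0. DESeq2 called 1 gene between tert-/- and wild type and 1 between tert-/- and tert+/-, nlrc8 in both. Without the 3 libraries high in ddx4, 1 of the 9 genes did not overlap between tert-/- and tert+/-, beside 2.65% of all genes higher and 5.43% lower. Of 27 log2 fold changes, 8 turned their sign. That of ceacam1 between tert-/- and wild type (-0.03) was 0.071 with DESeq2, 0.064 with RLE factors and 0.00033 with only these genotypes. That of ENSDARG00000098222 between tert+/- and wild type (0.02) was -0.31 and, with DESeq2, -0.32 without the 3 libraries. That of NHERF4 between tert-/- and tert+/- (0.26) was -1.39 and, with DESeq2, -1.42 without them. With each library left out in turn, ranges were -1.38 to 1.35 for ceacam1, -1.10 to 1.24 for si:dkeyp-1h4.8 and -0.54 to 1.01 for slc37a4bl (tert-/- against wild type). They were -0.41 to 0.73 for ENSDARG00000098222, -0.63 to 0.97 for si:ch211-219a15.4, -0.37 to 1.36 for nlrc8 and -1.31 to 0.17 for slc37a4bl (tert+/- against wild type), and -1.38 to 1.68 for NHERF4 (tert-/- against tert+/-). The causes were not tested. In the fit of tert-/- and wild type alone, nlrc8 did not pass the filter.

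No chosen genes lay within 5 rows of each other, so their correlation has no value. No paired analysis was possible because the labels give no replicate numbers. Off allowed at most 1 or 2 counts in the 10 libraries and 0 or 1 in the other 3.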
